A study of Sus scrofa with 28 samples.

Results

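SLPI encodes the secretory leukocyte protease inhibitor, a small secreted protein built of a pair of whey acidic protein domains. It blocks serine proteases that leukocytes release, among them neutrophil elastase, cathepsin G, chymase and tryptase. It is best known from the lining of airways and other mucosal surfaces and from neutrophils and macrophages, where it also dampens NF-kappaB signalling. It binds progranulin, the product of GRN, and keeps elastase from cleaving it into granulins, while sortilin, the product of SORT1, takes progranulin up into the cell.

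SLPI was followed in the loin muscle (Longissimus dorsi) of 28 male piglets slaughtered at weaning, at 28 days of age. Of these, 14 were purebred Iberian (IB) and 14 were Duroc × Iberian crosses (DU×IB), so that the genetic types differed in the breed of the sire (Iberian or Duroc) and shared Iberian dams. All piglets were kept with their mothers until slaughter. By the study's methods each type came from fewer litters than it had piglets, DU×IB from far fewer than IB. The labels do not say which piglets were littermates, so all tests, above all those within DU×IB, treat littermates as independent and their p-values may be too small. The total RNA of each piglet was hybridized to 1 porcine genome array, and the authors deposited log2 levels made with GCRMA, a method that models the background from the bases of each probe and brings the arrays to a common distribution. The gene was found by its symbol and is represented by 1 probe set of the 5226 in the table, which carry the names of 2275 genes. It was chosen because its level differs between the genetic types, so that difference is described below without a test. Relations between SLPI and the other 5225 probe sets within a genetic type were not part of that choice and were tested.

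The arrays fall into 2 hybridization series of 16 and 12 arrays by their spike-in controls, with 8 and 6 piglets of each genetic type. A group of 4 arrays lay farthest from the mean of their own type and series over all other probe sets, with root mean square deviations of 1.04 for IB replicate 3, 0.880 for IB replicate 1, 0.775 for IB replicate 6 and 0.747 for DU×IB replicate 3. The tissue label was checked on skeletal muscle genes. Of 28 listed, 5 are in the table, and their mean level ran from 10.14 to 11.34 in IB and from 10.44 to 11.10 in DU×IB. In bulk muscle, fewer cells of a type and less RNA per cell cannot be told apart.

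In the IB piglets SLPI was high throughout. In the series of 16 arrays, the log2 levels of IB replicates 1 to 8 were 9.17, 11.80, 11.53, 10.27, 11.33, 10.37, 10.83 and 10.59. In the series of 12, IB replicates 9 to 14 had 11.93, 10.21, 10.01, 12.90, 9.81 and 11.00. The mean was 10.84 ± 0.98 (SD, n = 14), the median 10.71, and the highest piglet stood 13.2-fold above the lowest.

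In the DU×IB piglets SLPI was low with a pair of exceptions. In the series of 16 arrays, DU×IB replicates 1 to 8 had log2 levels of 7.31, 8.38, 11.27, 7.60, 11.07, 8.12, 8.55 and 9.11. In the series of 12, DU×IB replicates 9 to 14 had 8.91, 9.09, 7.83, 8.11, 8.62 and 7.39. The mean was 8.67 ± 1.21 (SD, n = 14), the median 8.46, and the highest piglet stood 15.6-fold above the lowest. Replicates 3 and 5 lay within the range of the IB piglets, and the other 12 DU×IB piglets lay between 7.31 and 9.11, below the lowest IB piglet at 9.17.

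**Figure D1:**
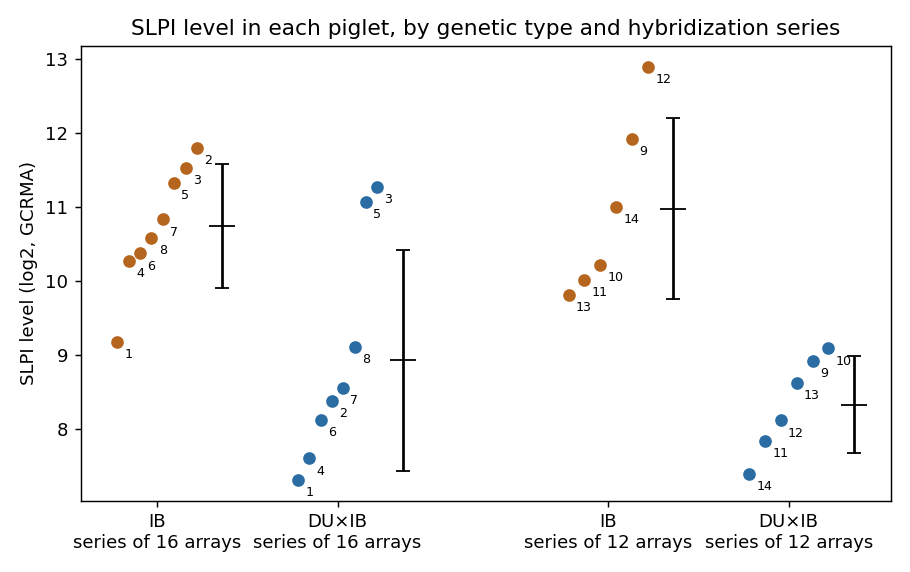
SLPI level of each piglet (log2, points labelled with the replicate number) by genetic type and hybridization series, with the mean and SD beside each group. Of the 14 DU×IB piglets, 12 lie below all IB piglets, and the groups of the series of 12 arrays do not overlap.

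The mean difference, DU×IB minus IB, was -2.17 log2 units (SE 0.42), so that SLPI was 4.50-fold higher in IB. An IB piglet had the higher level in 178 of the 196 pairs that 1 piglet of each type can form (90.8%). Within the series of 16 arrays the means were 10.74 ± 0.84 (SD, n = 8) in IB and 8.92 ± 1.49 (SD, n = 8) in DU×IB, a 3.51-fold difference, and within the series of 12 they were 10.98 ± 1.22 (SD, n = 6) and 8.33 ± 0.66 (SD, n = 6), a 6.28-fold difference. Without DU×IB replicates 3 and 5 the DU×IB mean was 8.25 ± 0.63 (SD, n = 12) and the difference 6.01-fold. In 5 of 5226 probe sets (0.0957%), at least 12 of the 14 DU×IB piglets lay on the same side of all IB piglets, and SLPI was the 1 probe set (0.0191%) in which they lay below. The other 4 belong to IGF2, the insulin-like growth factor 2 gene. These counts describe what the gene was chosen for.

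By the IGF2 probe set taken for the gene, the pair of DU×IB piglets at the IB level of SLPI lay above all IB piglets. Replicate 3 had an IGF2 level of 12.27 and replicate 5 one of 10.69 on the log2 scale, and the highest IB piglet had 10.04 (lowest 7.54, median 9.16). The IGF2 levels of the DU×IB piglets ran from 10.04 to 12.27, with a median of 11.00. By other IGF2 probe sets replicate 5 lay within the IB range, with 7.59, 5.55 and 3.53 below the highest IB levels of 7.60, 5.62 and 4.23. By these same probe sets replicate 3, with 9.06, 7.16 and 4.80, lay above all IB piglets. By the remaining IGF2 probe sets both piglets did. Replicate 3 lay farther from the mean of its own type and series than any other DU×IB array (0.747, the others 0.417 to 0.593), and replicate 5 lay among the others with 0.527.

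SLPI was not chosen for a difference in spread between the genetic types. Its spread could still bear on the choice, since the study kept probe sets by their variation and judged type differences against it. The mean absolute deviation from the median of the own genetic type was 0.777 log2 units in IB and 0.848 in DU×IB (permutation test, two-sided, p = 0.803), so a difference in spread was not shown. Among the other probe sets, 19.2% had a larger SD than SLPI in IB and 3.16% in DU×IB, where the median SD was 0.56 log2 units. The SD of SLPI in DU×IB was 1.21, and 0.63 without replicates 3 and 5. SLPI levels were 0.18 log2 units higher in the series of 16 than in the series of 12 (permutation test within genetic type, two-sided, p = 0.679). The difference was -0.24 within IB (permutation p = 0.667) and 0.60 within DU×IB (permutation p = 0.393).

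Measures of the arrays were set against SLPI within each genetic type, after removal of the series means. In 10 relations the Pearson r with the array median, the spike-in mean, the 5' actin control, the 18S rRNA control and the first principal component of the residuals had permutation p-values, adjusted over the 10, of 0.363 or more, also without the 2 piglets of each type whose SLPI lay farthest from the median, and Spearman's rho had 0.114 or more. The r with the array median was -0.42 in IB (permutation p = 0.0772, Spearman rho = -0.52, permutation p = 0.0328, adjusted 0.164) and -0.40 in DU×IB (permutation p = 0.258, rho = -0.31). The first residual principal component, which holds 23.8% of the residual variance and whose sign is arbitrary, had an r of -0.44 in IB (permutation p = 0.0558, rho = -0.59, permutation p = 0.0114, adjusted 0.114) and -0.47 in DU×IB (permutation p = 0.142, rho = -0.41). Without the farthest piglets its r was -0.51 in both types.

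Genes whose level moves with SLPI from piglet to piglet were sought with limma, as the slope of each probe set on the SLPI level given genetic type and series. Of 5225 probe sets, 1 (0.0191%) passed an adjusted p of 0.10 over both genetic types, an unnamed probe set with a slope of -0.33 log2 units (SE 0.06) per log2 unit of SLPI (limma, adjusted p = 0.0193). Its r with SLPI was -0.76 in IB and -0.85 in DU×IB. At an unadjusted p under 0.05 there were 690 probe sets (13.2%), 516 with a negative slope (9.88%) and 174 with a positive slope (3.33%). Over all probe sets 62.8% of slopes were below 0, with a median partial r of -0.09, but this majority turned with the scaling. The share below 0 was 46.6% with array median centring, 48.1% with quantile normalization, 44.9% when that principal component was added to the fit and 48.3% with the replicate block. The sign of a small median partial r of a list therefore depends on the scaling too, and where it turned with either normalization this is said beside the list.

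The call of the single probe set rested on individual piglets. Without DU×IB replicate 5, 551 probe sets passed (122 with a positive slope and 429 with a negative slope), and the probe set above was among them. Without DU×IB replicate 3 or without IB replicate 1 none passed with limma, with 401 at an unadjusted p under 0.05 in the former case, and without IB replicate 12, the piglet of highest SLPI, 3 passed. Leaving out any one of the other 24 piglets left that 1 probe set. Without both DU×IB replicates 3 and 5, 24 probe sets passed, all of them among the 551. With the SLPI level replaced by its rank within type and series, 325 passed (55 positive, 270 negative).

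**Figure D2:**
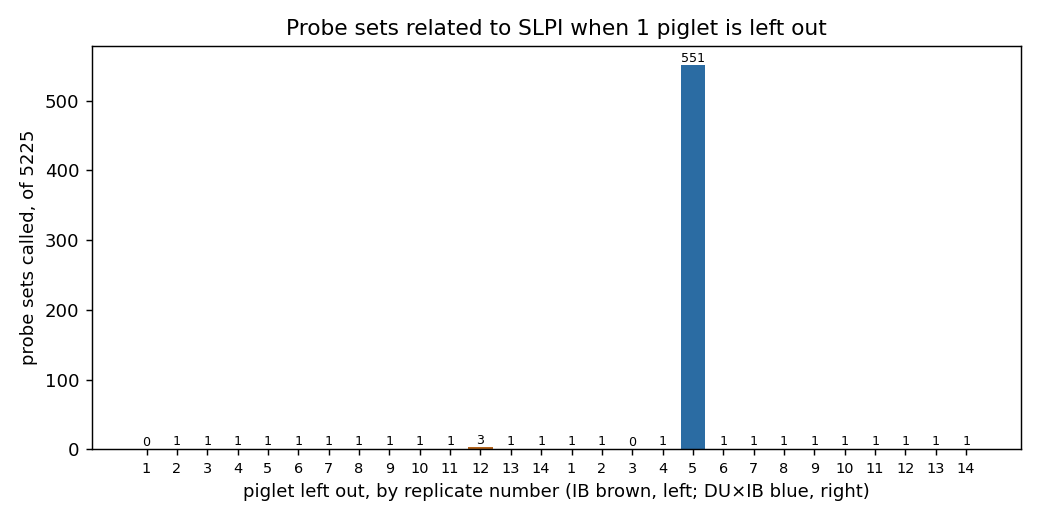
Number of probe sets (of 5225) whose slope on SLPI passed an adjusted p of 0.10 with limma when the piglet on the horizontal axis was left out. The count was 551 without DU×IB replicate 5 and between 0 and 3 without any other piglet.

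Likeness to SLPI was measured as the partial Pearson r over the 28 piglets given genetic type and series, and the 10 highest and 10 lowest named genes with the same sign of r in both types were taken. None of these 20 passed the slope test (limma, adjusted p between 0.206 and 0.337), and none passed the comparison of the genetic types made here. The study's own list of genes differing between the types, made with another model, holds 2 of them, DTNBP1 and PTGR2. All 20 passed the slope test without DU×IB replicate 5 and none without DU×IB replicate 3. Since they were chosen by the same relation, these counts show which piglets the likeness rests on and add no evidence for it.

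Among the genes higher where SLPI was higher, the 9 described here had partial r values from 0.51 to 0.59. SGF29, a histone reader of the SAGA complex, had r values of 0.57 in IB and 0.66 in DU×IB. DTNBP1, or dysbindin, which acts in the formation of lysosome-related organelles, had 0.72 and 0.47. The membrane protein gene TMEM98 had 0.39 and 0.61. HDGF, a growth factor found in the nucleus, had 0.66 and 0.47. TFEB, the transcription factor that turns on lysosome genes, had 0.54 in both types, and 0.57 in IB and 0.47 in DU×IB without the 2 piglets of each type whose SLPI lay farthest from the median. Its level was 8.60 in DU×IB replicate 3, the highest of that type, and 7.29 in replicate 5, below the median of 7.32. ZFAND2B, a zinc finger protein linked to the proteasome, had 0.57 and 0.43. The ubiquitin ligase gene MKRN1 had 0.60 and 0.53. RNF214, which encodes a RING finger protein, had 0.79 in IB and 0.22 in DU×IB, and BAIAP2, which links membranes to actin, had 0.76 and 0.20. In DU×IB without replicates 3 and 5 the r of the 9 genes lay between -0.19 for BAIAP2 and 0.63 for TMEM98, with 0.14 for MKRN1, 0.12 for HDGF and 0.33 for SGF29.

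Among the genes lower where SLPI was higher, PLN stood out by a pair of probe sets with like values. PLN encodes phospholamban, which restrains the calcium pump of the sarcoplasmic reticulum in heart and slow muscle. Its levels ran from 8.74 to 11.17 in IB (median 10.07) and from 9.15 to 11.98 in DU×IB (median 10.31). Its slope was -0.41 log2 units (SE 0.10) per log2 unit of SLPI (limma, adjusted p = 0.206). The r was -0.79 in IB (rho -0.85) and -0.50 in DU×IB (rho -0.57), and without the 2 farthest piglets of each type -0.88 and -0.58. The second probe set of PLN had r values of -0.71 and -0.60. In the piglets at the extremes of SLPI, IB replicate 1, the lowest, had a PLN level of 11.17, the highest of the IB piglets, and DU×IB replicate 3 had 9.22, next to the lowest of DU×IB. Set against the type medians over both series, the other extremes did not follow the relation, but r was taken with series means removed. IB replicate 12, the highest in SLPI, had 10.26, above the IB median, and 10.68 by the second probe set (IB median 9.77). The other IB piglets of its series of 12 had PLN levels of 9.66, 11.09, 10.98, 11.04 and 9.95. DU×IB replicate 1, the lowest in SLPI, had 10.31, at the DU×IB median. In its series of 16 the PLN levels of DU×IB ran from 9.22 to 10.33. Both probe sets of PLN passed the slope test without DU×IB replicates 3 and 5 (limma, adjusted p = 0.0882 and 0.0962).

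ETV1, an ETS family transcription factor, had the lowest partial r of -0.65, with r values of -0.70 in IB and -0.68 in DU×IB. In DU×IB this rested on replicates 3 and 5, the lowest and next lowest of ETV1 with levels of 3.29 and 4.27, and r was -0.10 without them. NOSTRIN, whose product steers endothelial nitric oxide synthase, had r values of -0.75 and -0.57 and passed without replicates 3 and 5 (limma, adjusted p = 0.0882). Its mean levels of 3.57 in IB and 3.53 in DU×IB lay under the level of 4 used for dim probe sets. SYBU, which encodes a linker of cargo to kinesin, had -0.65 and -0.58. The angiotensin II receptor gene AGTR1 had -0.74 and -0.51. The prostaglandin reductase gene PTGR2 had -0.57 and -0.68. DECR1, an enzyme of the mitochondrial oxidation of unsaturated fatty acids, had -0.47 and -0.72. The scaffold gene HOMER2 had -0.74 and -0.41, ABHD18 had -0.66 and -0.47, and ENPP1, an ectoenzyme that hydrolyses nucleotides, had -0.67 and -0.47. In DU×IB without replicates 3 and 5, the r of the 10 genes lay between -0.58 and -0.10.

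**Figure D3:**
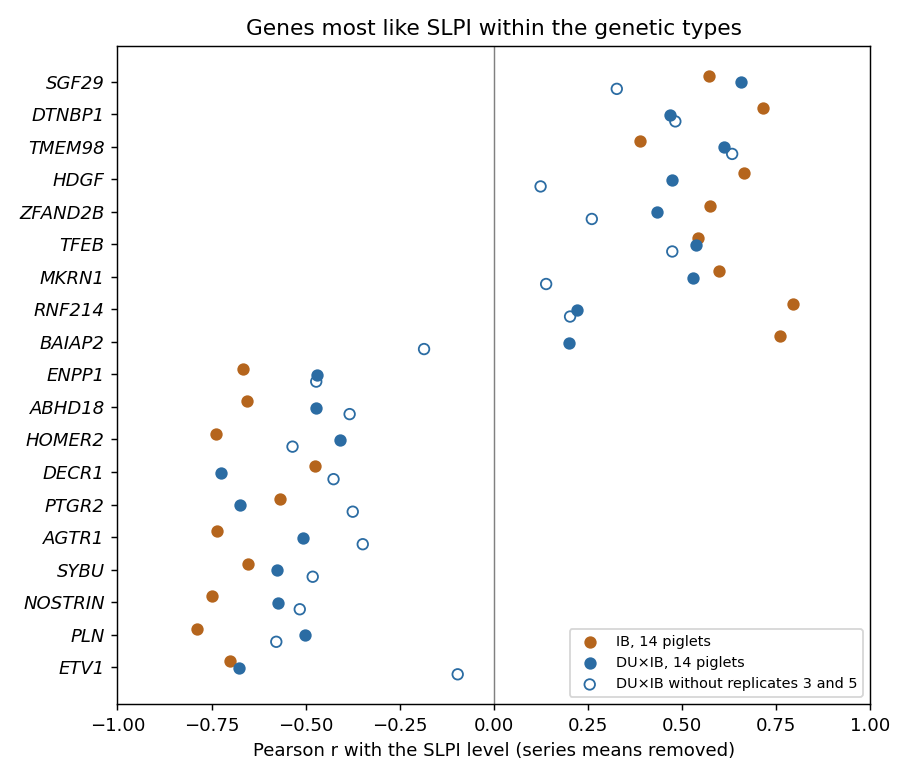
Pearson r with the SLPI level, series means removed, for 19 of the 20 named genes most like SLPI, in IB (brown), in DU×IB (blue) and in DU×IB without replicates 3 and 5 (open). All filled points of a gene share a sign, and without replicates 3 and 5 the r of BAIAP2 is -0.19 and that of ETV1 is -0.10.

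Within IB alone, 1 probe set of 5225 (0.0191%) passed the slope test, an unnamed one with a slope of -0.92 log2 units (SE 0.15) per log2 unit of SLPI (limma, adjusted p = 0.0912). It did not pass when any one of 11 IB piglets was left out, while 13 probe sets passed without IB replicate 12, and 543 probe sets (10.4%) had an unadjusted p under 0.05. By Spearman's rho with permutations within series, 29 probe sets passed in IB (0.555%), 23 with a negative and 6 with a positive rho, while by Pearson's r none did (lowest adjusted p 0.114, with 691 at an unadjusted p under 0.05). Of the 29, 25 had the same sign of rho in DU×IB. A name is given to 15 of them. The positive ones are CAPN3, BAIAP2, GPD2, which encodes the mitochondrial glycerol phosphate dehydrogenase, DEDD and RBM42. GPD2 was dim, as NOSTRIN was, with mean levels of 3.04 in IB and 2.65 in DU×IB. Its highest IB level, 5.13, was that of IB replicate 12. The negative ones are PLN, NOSTRIN, ENPP2, ITM2A, SMARCA1, CMTM6, TM4SF1, ALCAM, MAGT1 and PROS1, which encodes protein S, a plasma cofactor of anticoagulation.

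Within DU×IB alone, 1 probe set of 5225 (0.0191%) passed the slope test, that of PPM1B, a protein phosphatase that dampens inflammatory kinase signals. Its slope was -0.59 log2 units (SE 0.09) per log2 unit of SLPI (limma, adjusted p = 0.0139). PPM1B levels in DU×IB ran from 4.03 to 8.09 (median 6.84), and replicates 3 and 5, the highest in SLPI, were its lowest with 4.03 and 4.97. The r was -0.91 in DU×IB (-0.72 without replicates 3 and 5) and -0.26 in IB. In DU×IB 361 probe sets (6.91%) had an unadjusted p under 0.05. The count of passing probe sets was 365 without DU×IB replicate 5, 0 without replicate 1 or 3, 3 without replicate 4 and 2 without replicate 7 or 8. By permutation of Pearson's r 1 probe set passed in DU×IB (0.0191%), that of UTRN, the utrophin gene, with an r of -0.82 (adjusted permutation p = 0.0522, -0.85 without replicates 3 and 5) and of 0.08 in IB. By rho none passed in DU×IB, and the permutation did not call PPM1B (adjusted permutation p = 0.418).

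Whether the relation with SLPI differs between the genetic types was tested as the interaction of SLPI level and type. None of 5225 probe sets passed (0%, limma; lowest adjusted p 0.455), 282 (5.4%) had an unadjusted p under 0.05, and Fisher's z test of the 2 correlations gave none either, with 243 at an unadjusted p under 0.05. Without IB replicate 12, 13 passed. Over all probe sets, r had the same sign in both types in 66.7%. Among genes with opposite values, chosen after their values were seen, F2R, the thrombin receptor, had an r of -0.80 in IB and 0.43 in DU×IB, and F2RL2, another receptor opened by proteases, had -0.86 and 0.01, with no adjusted p of the interaction under 0.455. The r of F2R in DU×IB was -0.20 without replicates 3 and 5.

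Of the 28 listed skeletal muscle genes, the 5 measured had a median r of 0.54 in IB and -0.04 in DU×IB. CAPN3, the muscle calpain gene, had log2 levels from 9.85 to 11.31 in IB (median 10.52) and from 9.50 to 11.22 in DU×IB (median 10.31). Its r was 0.87 in IB (rho 0.88) and -0.04 in DU×IB, where it was 0.60 without replicates 3 and 5, and its slope passed without those piglets (limma, adjusted p = 0.0882). The second probe set of CAPN3 had r values of 0.25 and -0.59, so the 2 probe sets disagree. PYGM, the muscle glycogen phosphorylase gene, had r values of 0.73 and -0.02, with 0.75 and 0.25 by its second probe set, which passed without DU×IB replicates 3 and 5 (limma, adjusted p = 0.0962). ATP2A1, the calcium pump of fast fibres, had 0.54 and 0.48, and its second probe set had 0.69 and -0.17, so its probe sets differ in sign in DU×IB. CASQ2, the calsequestrin of slow and cardiac muscle, had -0.40 and -0.63, and MYL3, a slow myosin light chain gene, had -0.38 and -0.10. Of the 5, 3 had a positive and 2 a negative partial r, none passed the slope test, and CASQ2 was 0.97 log2 units higher in DU×IB (limma, adjusted p = 0.0928), a call lost when any one of 19 of the 28 piglets was left out.

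**Figure D4:**
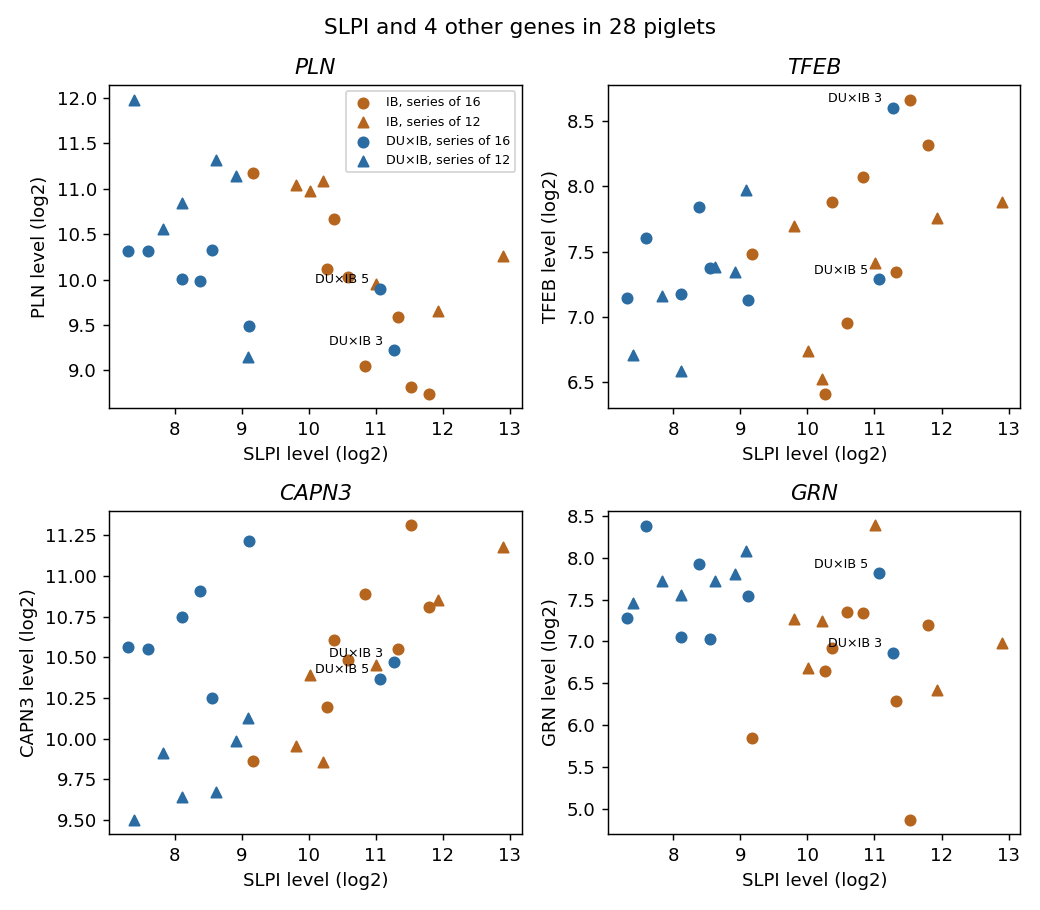
Log2 levels of PLN, TFEB, CAPN3 and GRN against the log2 level of SLPI in 28 piglets, coloured by genetic type (IB brown, DU×IB blue), with circles for the series of 16 arrays and triangles for the series of 12. CAPN3 runs along SLPI in IB (r = 0.87), and GRN has an r of -0.07 in IB and -0.11 in DU×IB.

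The partners of SLPI were described next. Between genetic types, 145 of 5226 probe sets passed with limma (2.77%), of which 108 had their higher mean in DU×IB (2.07%) and 37 in IB (0.708%). Of 17 listed genes of the granulin axis 6 were measured, and 2 passed, both higher in DU×IB. GRN levels ran from 4.88 to 8.38 in IB (median 6.95) and from 6.86 to 8.37 in DU×IB (median 7.64), so the groups overlap. GRN was 0.77 log2 units (SE 0.23) higher in DU×IB (limma, adjusted p = 0.0881), and it did not pass when any one of 15 of the 28 piglets was left out (highest adjusted p 0.149). SORT1 levels ran from 6.81 to 7.97 in IB (median 7.41) and from 7.66 to 8.91 in DU×IB (median 8.12). SORT1 was 0.66 log2 units (SE 0.14) higher in DU×IB (limma, adjusted p = 0.00926, at most 0.0226 with any piglet left out). Like CASQ2, JPH2, IRF1 and APLNR, both genes are in the study's own list of differing genes, made on these samples. Such calls, and the count of 2 here, are therefore not independent evidence.

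Within the genetic types neither GRN nor SORT1 passed the slope test. The r of GRN was -0.07 in IB and -0.11 in DU×IB, and that of SORT1 was 0.09 and -0.04. In DU×IB replicates 3 and 5, the pair with SLPI at the IB level, GRN was 6.86 and 7.82, the former the lowest of DU×IB, and SORT1 was 8.11 and 8.01, above all IB piglets. PLSCR1, a phospholipid scramblase that binds SLPI at the cell surface, had r values of -0.70 and -0.28, ANXA4, another of the listed membrane binders, had -0.33 and -0.52, and PSAP, the prosaposin gene, had -0.06 and 0.39. TNFRSF1B, a receptor of tumour necrosis factor that progranulin binds, had -0.13 and -0.16. None of the 6 passed the slope test, and their median partial r was -0.08, beside -0.09 over all probe sets, with 1 positive and 5 negative, while 4 were positive with array median centring or quantile normalization.

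Proteases that SLPI is known to inhibit, such as the products of ELANE and CTSG, were not analysed here. Of 59 listed secreted serine proteases 6 were measured, and none passed either test. PLAT, the tissue plasminogen activator gene, had r values of -0.71 in IB and -0.23 in DU×IB, and DPP4 had -0.33 and -0.42. PLAU, the urokinase gene, had -0.29 and -0.38. The complement proteases C1R, C1S and CFD had partial r values between -0.06 and -0.01. All 6 partial r values were negative, with a median of -0.20, while 3 were positive with array median centring and 2 with quantile normalization. Their differences between genetic types ran from -0.68 log2 units for C1R to 0.34 for DPP4.

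Of 48 listed inhibitors of proteases 11 were measured besides SLPI, and none passed either test. SLPI had a mean difference of -2.17 log2 units between the genetic types, while theirs ran from -0.30 for CAST, the calpain inhibitor gene, to 0.47 for SERPINH1, the collagen chaperone gene. WFDC1, the measured relative of SLPI with a whey acidic protein domain, had a difference of -0.09, with levels from 6.23 to 7.57 in IB (median 7.13) and from 5.76 to 7.74 in DU×IB (median 7.08). Its r with SLPI was -0.40 in IB and -0.41 in DU×IB, and 0.07 in DU×IB without replicates 3 and 5. ITIH4, a plasma inhibitor chain, had -0.71 and -0.33, TFPI2 had -0.39 and -0.21, and TIMP1, an inhibitor of matrix metalloproteases, had -0.62 and 0.38. The median partial r of the 11 was -0.16, with 3 positive, and 6 were positive with array median centring and 5 with quantile normalization. Among the 50 protein-coding genes nearest to SLPI on chromosome 17 of the Sscrofa11.1 assembly, 25 on each side, 3 were measured. PKIG had partial r of -0.01, JPH2 of 0.08 and UBE2C of -0.10. JPH2, a junctophilin gene of muscle, was 0.63 log2 units higher in DU×IB (limma, adjusted p = 0.0377).

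Of 41 listed genes of the NF-kappaB pathway and its inflammatory targets, 11 were measured and none passed either test. The study, with another model, called NFKBIZ higher in IB on these arrays. IKBKG, which encodes the regulatory subunit of the kinase complex, had r values of 0.66 and 0.60, and 0.78 and 0.02 without the farthest piglets. The early response gene IER3 had -0.30 and -0.42, NFKBIZ, a nuclear inhibitor, had -0.27 and -0.41, and the inhibitor gene NFKBIB had 0.36 and 0.18. The chemokine gene CXCL2 had -0.33 and -0.13. Of the 11, 9 had a lower mean in DU×IB, with a median difference of -0.26 log2 units beside 0.02 over all probe sets. Of 32 listed steroid, interferon and C/EBP genes 17 were measured, none passed the slope test and 1 passed between the types. That was IRF1, an interferon response factor, with a difference of -0.79 log2 units, DU×IB minus IB (limma, adjusted p = 0.0929), which did not pass when any one of 19 of the 28 piglets was left out, and its r with SLPI was 0.03 in IB and -0.03 in DU×IB. The interferon-induced genes IFIT1 and ISG15 had r values of -0.45 and -0.41 in IB and of -0.49 and -0.36 in DU×IB, where without replicates 3 and 5 they were 0.17 and 0.33. CEBPZ, a CCAAT-binding protein gene, had -0.31 and -0.50, the growth factor gene TGFB1 had 0.32 and 0.47, and its receptor gene TGFBR1 had -0.57 and -0.21. The partial r of 13 of the 17 was negative, and of 10 with array median centring.

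**Figure D5:**
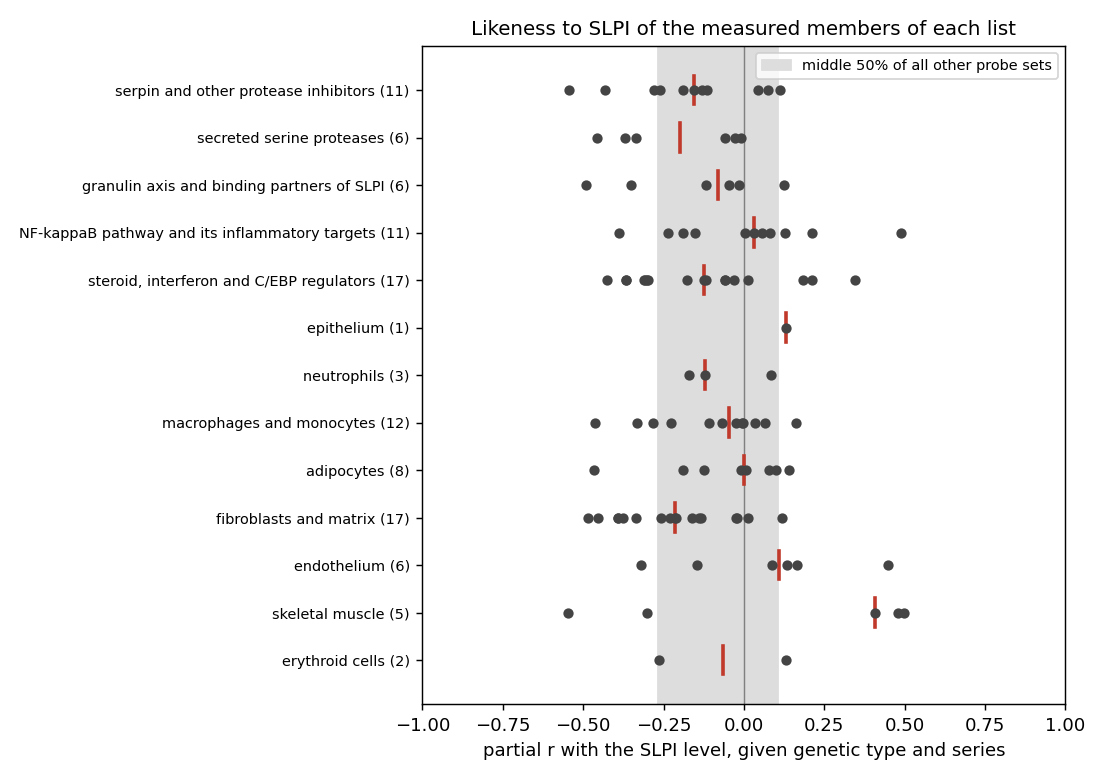
Partial r with the SLPI level given genetic type and series for each measured member (points) and the median (red line) of 13 lists, with the number measured in brackets. The grey band runs from -0.27 to 0.107, the middle 50% of the other 5225 probe sets. The medians of skeletal muscle (0.41, 5 genes), epithelium (0.13, 1 gene) and, barely, endothelium (0.110, 6 genes) lie above it.

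Markers of cell types that are known to make SLPI were sparsely measured. Of 22 epithelial genes only CLDN7 was, with levels from 5.75 to 7.60 in IB and from 6.75 to 8.30 in DU×IB and r values of 0.02 and 0.23. Of 26 neutrophil genes 3 were measured (HP, ALOX5AP and FCGR3A), their mean level per piglet ran from 4.09 to 5.86 in IB and from 3.94 to 6.34 in DU×IB, and none passed either test. The study, with another model, called ALOX5AP higher in IB on these arrays. Of the 3, 1 had a positive partial r, while 2 were positive with array median centring or quantile normalization. The defining genes S100A8, S100A9, EPCAM, KRT8 and KRT18 were not analysed here, nor was any of the listed genes of mast cells and lymphocytes. Of 24 macrophage and monocyte genes 12 were measured. All 12 had a lower mean in DU×IB, as SLPI did, with a median difference of -0.42 log2 units, and none passed. Of all 5225 probe sets other than SLPI, 2479 had a lower mean there. Without the 2 farthest piglets of each type 10 of the 12 had a lower mean, with a median of -0.12. Their mean level per piglet ran from 5.20 to 8.18 in IB and from 4.99 to 5.87 in DU×IB. Their median partial r with SLPI was -0.05, with 9 negative and 3 positive, while 8 were positive with array median centring and 7 with quantile normalization. MRC1, a mannose receptor gene, had r values of -0.48 in IB and -0.42 in DU×IB, CTSS had -0.38 and -0.51 and CD163 had -0.26 and -0.34. SPP1, the osteopontin gene, had -0.33 and -0.29, and LAPTM5, a lysosomal membrane protein gene, had 0.16 and 0.14. In DU×IB without replicates 3 and 5 these were 0.06 for MRC1, 0.09 for CTSS, -0.14 for CD163, 0.31 for SPP1 and 0.28 for LAPTM5. The part of these cells in the SLPI level was not tested.

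Genes of fibroblasts and matrix moved between the types opposite to SLPI. Of 28 listed 17 were measured, all 17 had a higher mean in DU×IB and 10 passed, with a median difference of 0.90 log2 units, and their mean level per piglet ran from 6.58 to 8.83 in IB and from 8.23 to 9.60 in DU×IB. Of all 5225 probe sets other than SLPI, 2746 had a higher mean in DU×IB and 108 passed as higher there (2.07%). The study's own list of differing genes, made on these samples, holds matrix genes, so the count of 10 is not independent evidence. The largest differences among the 10 were 1.93 log2 units for KERA, the keratocan gene (limma, adjusted p = 0.00423), and 1.93 for FMOD, the fibromodulin gene (limma, adjusted p = 0.00619). The collagen genes COL12A1, COL1A1, COL5A1 and COL14A1 had 1.52, 1.21, 0.73 and 0.70, POSTN 1.29, ASPN 1.11, the fibrillin gene FBN2 0.96 and LOX, which crosslinks collagen, 0.89 (limma, adjusted p between 0.0144 and 0.0758). POSTN and ASPN did not pass when any one of 7 and of 12 piglets was left out. Within the types 15 of the 17 had a negative partial r with SLPI, with a median of -0.22, and none passed, while 11 were negative with array median centring and 12 with quantile normalization. POSTN, the periostin gene, had r values of -0.64 in IB and -0.30 in DU×IB (0.32 without replicates 3 and 5), MFAP5 had -0.55 and -0.30, the collagen gene COL12A1 had -0.56 and -0.20, and ASPN had -0.48 and -0.35. FBN1 had -0.63 and -0.00225. In DU×IB without replicates 3 and 5, MFAP5 had 0.24, COL12A1 0.14 and ASPN 0.07. Whether matrix content has a part in the SLPI difference was not tested.

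Of 17 endothelial genes 6 were measured, and 5 of them had r values of opposite sign in the genetic types, as 33.3% of all probe sets did, with a median of -0.30 in IB and 0.53 in DU×IB. No interaction passed (limma, lowest adjusted p of the 6 0.455), and the positive values in DU×IB were smaller or turned negative without replicates 3 and 5. CDH5, the cadherin gene of endothelium, had -0.73 and 0.57, and 0.04 in DU×IB without these piglets. PECAM1, an adhesion gene of endothelium, had -0.42 and 0.53, and -0.16 without them. ESAM, another adhesion gene, had -0.68 and 0.31, and -0.13 without them. VWF, the von Willebrand factor gene, had -0.18 and 0.54, and 0.11 without them, while the claudin gene CLDN5 had -0.08 and 0.45, and 0.33 without them. APLNR, the apelin receptor gene, had 0.30 and 0.68, and 0.23 without them, and was 0.99 log2 units higher in DU×IB (limma, adjusted p = 0.0286). Of 26 adipocyte genes 8 were measured, 4 with a positive and 4 with a negative partial r and a median of -0.0011, while 5 were positive with array median centring or quantile normalization. RBP7, a retinol binding protein gene, was the 1 of the 8 that passed between the types, 1.58 log2 units higher in DU×IB (limma, adjusted p = 0.0202), and had r values of -0.04 and 0.40. FABP4, the fatty acid binding protein of adipocytes, had -0.62 and -0.27, CAV1, the caveolin gene, had -0.77 and 0.33 (-0.17 without replicates 3 and 5), DGAT2, an enzyme of triglyceride synthesis, had -0.28 and -0.07, and the triglyceride lipase gene PNPLA2 had 0.08 and 0.13. The pair of measured erythroid genes, HBB and ALAS2, had partial r values of -0.26 and 0.13. Their median slope on SLPI was -0.039, but 0.009 with array median centring and 0.018 with quantile normalization.

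Other genes with a large difference between the types, named in earlier work on these arrays and so chosen on them, were set against SLPI too. Of 15, 14 passed between the types and none passed the slope on SLPI, with a median partial r of -0.02 and 6 positive, while 8 were positive with array median centring and 9 with quantile normalization. SVIP, an inhibitor of protein degradation from the endoplasmic reticulum, had a difference of -3.53 log2 units, DU×IB minus IB, and r values of -0.42 in IB and 0.34 in DU×IB (-0.15 without replicates 3 and 5). The second probe set of SVIP had a difference of -2.34 log2 units and r values of -0.38 and 0.25 (-0.20 without replicates 3 and 5). ME1, the malic enzyme gene, had a difference of -1.02 log2 units and r values of 0.73 and -0.04. PON3 had a difference of -1.70 log2 units and r values of 0.06 and -0.16, and GPX2 had a difference of 2.37 log2 units and r values of 0.15 and -0.41. The phospholipase gene PLA1A had a difference of -1.30 log2 units and r values of -0.10 and -0.76, the latter 0.04 without replicates 3 and 5. The neurexin gene NRXN3 had a difference of -0.83 log2 units and r values of 0.39 and 0.01, and ENPP4, an ectoenzyme gene, one of -1.31 with -0.69 and 0.08. CLYBL, a mitochondrial enzyme gene, had a difference of -1.60 log2 units and r values of 0.14 and 0.01, and the fatty acid elongase gene ELOVL6 one of -0.63 with 0.14 and -0.30, a call lost when any one of 20 of the 28 piglets was left out. The matrix genes KERA and FMOD had r values of -0.28 and -0.23 in IB and of -0.18 and -0.17 in DU×IB. SCD, the stearoyl-CoA desaturase gene, was the 1 of the 15 that did not pass, with a difference of -0.71 log2 units and r values of 0.03 and 0.14. The study's qPCR on RNA of the same piglets did find SCD higher in IB. It also found IGF2, KERA, FMOD, ME1 and PON3 differing in the direction seen here. For ELOVL6 it found no significant difference, and for PLA1A one that was close to significance. IGF2 had a difference of 2.27 log2 units and r values of 0.43 and 0.07, and its 7 probe sets had r values from 0.26 to 0.76 in IB (lowest adjusted permutation p 0.114) and from -0.16 to 0.15 in DU×IB.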

How the data were processed

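One porcine genome array was hybridized per piglet. Per the labels, scans were processed with GCOS and GCRMA (versions not given in the sources used here), and the authors deposited log2 levels of the 5226 probe sets kept by their variation filter, which all of them met when it was checked. Array medians ran from 6.01 to 7.05, and precision is set by how many arrays there are. Names came from the study's tables (572 probe sets) or the platform annotation (2073), and 2581 had several or none. The labels give no hybridization series, so it was recovered from 10 spike-in probe sets. Litters are not labelled, so piglets were treated as independent, although some were littermates, above all in DU×IB, and p-values may be too small.

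Slopes on SLPI (genetic type and series as covariates), their interaction with type and the DU×IB minus IB contrast (series as covariate) were fitted over the whole table with limma 3.58.1 (R 4.3.3, two-sided, Benjamini-Hochberg, threshold 0.10). Correlations had 100000 permutations within series. A gene was taken by the study's probe set, otherwise by the one of highest mean. The 20 genes of largest likeness were named, of which 1 is not reported here, and from each of 16 lists up to 5 members of largest likeness and those passing a test. SLPI and the lists were chosen with earlier results of these data known. Alternatives were another normalization, the series left out, a residual principal component, ranks, dim probe sets (mean under 4 in both types) left out, a threshold of 0.05, another prior, a replicate block and piglets left out. Scripts were tested on simulated data.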

Additional observations from a re-analysis of the deposited data

How the results depend on the processing

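The lower SLPI level in DU×IB kept its direction with array median centring and with quantile normalization. It did so within the series of 16 and of 12 (differences of -1.81 and -2.65 log2 units) and with any piglet left out (-2.37 to -2.01). SLPI was chosen for this difference, so this is a description only. Calls of genes related to SLPI changed with the setting. Over both types the main count of 1 was 0 without the series term, 4 with array median centring, 7 with quantile normalization, 325 with ranks, 0 without the 2 farthest piglets of each type and 24 without DU×IB replicates 3 and 5 (added after seeing the data), and it ran from 0 to 551 with 1 piglet left out. Within IB the count of 1 was 0 without the series term, with the principal component, with either normalization, with ranks, at a threshold of 0.05 and without the farthest piglets, and ran from 0 to 13 with 1 piglet left out. Within DU×IB the count of 1 was 0 without the series term, with ranks and without replicates 3 and 5, which are the farthest piglets, and ran from 0 to 365 with 1 piglet left out. The interaction count of 0 ran from 0 to 13 with 1 piglet left out. The contrast between types gave 145 calls, 52 without the series term, 289 with the principal component and 80 at a threshold of 0.05, and from 103 to 221 with 1 piglet left out, the highest without IB replicate 4. The cause was not tested.

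The replicate block gave 0 calls in place of 1 over both types and 145 in the contrast. Deviations from the mean of type and series correlated between piglets of the same number with r over 0.1 in 2 of 14 pairs, and 1 piglet of DU×IB correlated best with its own number, so the numbers do not pair the samples. The difference of SLPI between the series was -0.24 within IB, against 0.18 over both types. The r with the spike-in mean in IB was -0.0952 without the series term, and the r with the 5' actin control in DU×IB was 0.0198 as Spearman's rho, 0.143 without the series term and 0.160 without the farthest piglets. The signal does not limit SLPI itself, which lay between 7.31 and 12.90 in all 28 piglets, above the level of 4 used for dim probe sets.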
